A study of Mus musculus with 9 samples.

Results

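The p90 ribosomal S6 kinases (RSK) and the mitogen- and stress-activated kinases (MSK) form a family of 6 mouse genes, Rps6ka1 to Rps6ka6, whose mRNA was followed here in mouse embryonic fibroblasts (MEFs) lacking enzymes that methylate histone H3 on lysine 9. Members were taken as the genes with these symbols, which were 6 of the 47937 genes counted, and all 6 were among the 15540 genes with enough counts to test. The family was chosen because Rps6ka6 differed widely between the genotypes, so its levels are given as a description without a p-value. It was part of the fit across all genes, and the counts of called members below include it.

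RSK kinases carry a pair of kinase domains in 1 chain. RSK1, RSK2 and RSK3 are switched on by ERK kinases together with PDK1. They stand at the end of the cascade that runs from growth factor receptors through Ras, Raf and MEK. MSK kinases also carry a pair of kinase domains and are switched on by ERK and by the stress kinase p38. They sit in the nucleus, where they phosphorylate the transcription factor CREB and histone H3. Substrates of the family control translation, cell survival and the rapid transcription of immediate early genes.

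The 9 libraries came from 3 cell lines with 3 libraries each, and total RNA was sequenced. WT cells were the conditional Eset1 MEF line E1c, which carries loxP-flanked alleles of Setdb1 (Eset1), without further deletions, and both mutant lines were made from this line, so all 3 share the conditional allele. In S1S2 cells the genes of the methyltransferases Suv39h1 and Suv39h2 had been disrupted by CRISPR/Cas9, and in G9Gl cells those of G9a (Ehmt2) and Glp (Ehmt1). The labels name no agent that would delete Setdb1 in these libraries. Each mutant line is a single clone, so the genotype and the clone cannot be told apart in any difference below.

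Libraries held 21319778 to 32157623 counts, so that 3 counts, the level taken as the detection floor, corresponded to 0.0923 to 0.141 CPM (counts per 1000000 counts of the library, after scaling). The targeted genes fell by 1.36 (Suv39h1, S1S2 against WT), 1.20 (Ehmt2, G9Gl against WT) and 1.04 (Ehmt1, G9Gl against WT) on the log2 scale. Suv39h2 mRNA was higher in S1S2 than in WT, by 0.70, against its label, and the clones had been picked for loss of the proteins. All 10 fibroblast markers were detected, with summed levels of 9869 to 11371 CPM in WT, 7405 to 7472 in S1S2 and 7799 to 8659 in G9Gl. Single fibroblast markers moved both ways: in the same order Dcn was at 7.21, 2.18 and 0.198 CPM, Thy1 at 4.98, 2.05 and 38.3, Vim at 1458, 2399 and 1250.4, Col1a2 at 2395, 395 and 2030, and Col3a1 at 1527, 190.1 and 844. Markers of other cell types were low beside these, though some differed between the lines, and their part in the results below was not tested. The summed epithelial markers reached 0.198 to 0.3999 CPM in WT, 0.376 to 0.965 in S1S2 and 4.25 to 5.32 in G9Gl, and the muscle markers 2.86 to 3.26, 2.66 to 3.81 and 9.93 to 11.4. Of these, Krt14 was at 0 CPM in WT, 0.0585 in S1S2 and 4.39 in G9Gl, Des at 2.36, 2.95 and 7.601, and Acta1 at 0.689, 0.281 and 2.97. Endothelial markers summed to 0.123 to 0.193 CPM in WT, 1.55 to 1.70 in S1S2 and 0.790 to 2.35 in G9Gl. The sums were 6.05 to 6.95 CPM over all libraries for blood and macrophage markers. Neuronal markers summed to 0.860 to 1.42, 0.322 to 0.658 and 1.31 to 2.12 CPM in WT, S1S2 and G9Gl, with Snap25 at 0 except in G9Gl (0.524), and pluripotency markers to 0.397 to 0.419, 0.0470 to 0.292 and 0.491 to 0.588. Krt5, Adgre1, Rbfox3, Myod1, Pou5f1 and Zfp42 were at 0 in all libraries.

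The members lie on 5 chromosomes (build GRCm38). Rps6ka1 spans chr4:133847290-133887797, Rps6ka2 chr17:7170115-7303315, Rps6ka4 chr19:6829085-6840636 and Rps6ka5 chr12:100548439-100726983. Rps6ka3 (chrX:159210307-159368244) and Rps6ka6 (chrX:111388192-111537959) are both on the X chromosome. All are protein coding, and the reads were summed over the exons of each gene, which does not separate transcripts.

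The start regions of the members that moved most are shown because the genotypes differ in a chromatin mark. Sequences of the 250 bases before the RefSeq starts were at hand for 5 of the 6 members, in build GRCm38.p6. Below they run 5′ to 3′ on the strand of the gene, with CpG dinucleotides, the sites of DNA methylation, in capitals. Rps6ka6 has 2 such starts, 74.5 kb apart, at chrX:111537960-111538209 for the outer window and chrX:111463498-111463747 for the inner window, both on the minus strand. The other windows are chr17:7169865-7170114 on the plus strand (Rps6ka2), chr12:100725121-100725370 on the minus strand (Rps6ka5) and chr19:6840628-6840877 on the minus strand (Rps6ka4).
Rps6ka6 outer start: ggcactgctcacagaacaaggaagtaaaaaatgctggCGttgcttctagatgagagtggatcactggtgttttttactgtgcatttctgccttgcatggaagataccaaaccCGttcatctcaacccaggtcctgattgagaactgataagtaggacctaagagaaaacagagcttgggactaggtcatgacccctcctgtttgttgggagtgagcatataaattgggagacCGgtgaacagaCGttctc
Rps6ka6 inner start: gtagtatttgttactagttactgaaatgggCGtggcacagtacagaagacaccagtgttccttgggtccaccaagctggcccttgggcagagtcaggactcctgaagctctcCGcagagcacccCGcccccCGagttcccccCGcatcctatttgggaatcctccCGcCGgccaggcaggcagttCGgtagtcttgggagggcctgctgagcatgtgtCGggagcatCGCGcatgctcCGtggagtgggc
Rps6ka2: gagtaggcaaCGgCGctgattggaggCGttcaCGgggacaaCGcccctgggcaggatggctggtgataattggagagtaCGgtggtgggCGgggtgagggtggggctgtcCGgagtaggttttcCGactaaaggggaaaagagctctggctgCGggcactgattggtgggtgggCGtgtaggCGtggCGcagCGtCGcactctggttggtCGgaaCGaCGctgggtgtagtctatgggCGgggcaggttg
Rps6ka5: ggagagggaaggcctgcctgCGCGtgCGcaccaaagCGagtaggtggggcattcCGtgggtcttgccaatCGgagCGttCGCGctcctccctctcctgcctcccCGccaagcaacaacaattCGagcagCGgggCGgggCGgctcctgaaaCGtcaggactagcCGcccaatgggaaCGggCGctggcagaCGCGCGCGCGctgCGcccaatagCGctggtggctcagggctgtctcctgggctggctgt
Rps6ka4: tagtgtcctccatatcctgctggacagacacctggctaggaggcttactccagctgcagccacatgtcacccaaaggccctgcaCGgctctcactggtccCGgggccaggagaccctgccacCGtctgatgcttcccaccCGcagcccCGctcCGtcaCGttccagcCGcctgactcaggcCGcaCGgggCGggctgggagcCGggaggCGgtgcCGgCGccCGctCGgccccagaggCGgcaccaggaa

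The outer window of Rps6ka6 held 4 CpG and 46.4% G and C, and its inner window held 12 CpG and 60.8%. The windows of Rps6ka2, Rps6ka5 and Rps6ka4 held 19, 25 and 18 CpG, against a median of 6 over all 32841 windows of this length. Thus the outer Rps6ka6 start was the poorest of the 5 in CpG, with 37.8% of all windows poorer still, and the 3 other genes were richer than 78.3% to 89.3% of windows. Coding transcripts annotated from the outer Rps6ka6 start were short (639 and 644 bases). Those of 3867, 4135 and 4151 bases began 74764 to 74916 bases further in, near the inner window. The longest, of 4170 bases, began 51177 bases in, at neither window. Which start these cells used was not tested. Rps6ka1 has 3 RefSeq starts, with 30, 2 and 6 CpG.

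Letters of binding sites were then searched on both strands. The cAMP response element TGACGTCA, bound by the MSK substrate CREB, was in no member window and in 1.55% of all windows. Its shorter form TGACG, which the full element contains, occurred once each in the windows of Rps6ka4 and Rps6ka5 and in 1 window of Rps6ka1, against 17.8% of all windows. The AP-1 letters TGANTCA were found once, in Rps6ka4 (6.75% of all windows), and the E-box CACGTG in none (6.02%). The GC box GGGCGG occurred in the windows of Rps6ka2 (2 matches), Rps6ka4 (1), Rps6ka5 (3) and the inner start of Rps6ka6 (1) and in 1 window of Rps6ka1 (3), but not at the outer start of Rps6ka6, with a share of 32.7% over all windows. Such matches describe letters, not bound sites.

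Rps6ka6, which encodes RSK4, was nearly silent in S1S2 cells and strongly raised in G9Gl cells. The 3 WT libraries held 106, 96 and 104 counts of Rps6ka6, or 3.26, 3.17 and 3.35 CPM. S1S2 replicates 1 and 2 held 0 counts and replicate 3 held 2, so all 3 lay under the floor of 3 counts. The G9Gl libraries held 511, 491 and 524 counts, or 17.9, 17.6 and 17.1 CPM. All libraries of each genotype were thus apart from those of the others, in the order S1S2, WT, G9Gl.

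The mean level of Rps6ka6 was 3.26 ± 0.0891 CPM in WT (SD, n = 3) and 17.6 ± 0.420 CPM in G9Gl (SD, n = 3), a 5.37-fold difference. Against the floor, averaged over the S1S2 libraries at 0.129 CPM, Rps6ka6 was at least 25.2-fold lower in S1S2 than in WT and at least 135.64-fold higher in G9Gl than in S1S2. No stretch of 75 bases in its exons occurs in another annotated gene. In these bulk libraries, fewer cells that express a gene and less RNA per cell cannot be told apart.

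**Figure D1:**
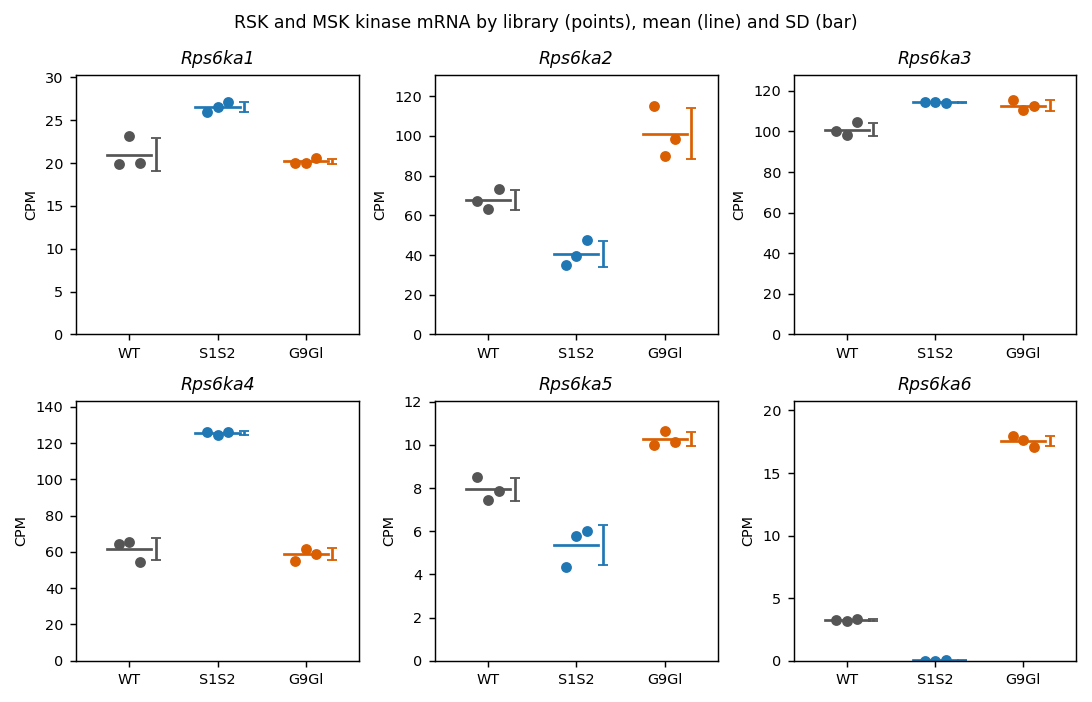
Level of each RSK and MSK mRNA in CPM (linear axes from 0) in the 3 libraries of WT, S1S2 and G9Gl cells; points are libraries, lines the means and bars the SD. Rps6ka6, Rps6ka5 and Rps6ka2 were lowest in S1S2 and highest in G9Gl, whereas Rps6ka4 was at 126 CPM in S1S2 against 61.5 in WT and 58.6 in G9Gl.

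Rps6ka2, which encodes RSK3, followed the same order with smaller differences. Its level was 67.1, 63.01 and 73.3 CPM in the WT libraries, 34.8, 39.3 and 47.4 CPM in S1S2, and 114.9, 89.9 and 98.3 CPM in G9Gl. The lowest G9Gl library was above the highest WT library, and the lowest WT library above the highest S1S2 library. Compared with WT, Rps6ka2 fell by 0.74 in S1S2 on the log2 scale (SE 0.144, adjusted p = 6.84e-06, edgeR quasi-likelihood test) and rose by 0.58 in G9Gl (SE 0.121, adjusted p = 5.68e-05, edgeR). The direct comparison of G9Gl with S1S2 gave a log2 difference of 1.32 (SE 0.166, adjusted p = 3.26e-09, edgeR), or 2.497-fold. Of the 75-base stretches in its exons, 15.0% also occur in other annotated genes, and how such reads were assigned was not tested.

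Rps6ka1 and Rps6ka3, which encode RSK1 and RSK2, stayed under a 2-fold difference in every comparison. Rps6ka1 stood at 19.8, 23.2 and 19.98 CPM in WT, 26.0, 26.5 and 27.2 CPM in S1S2, and 20.04, 20.04 and 20.6 CPM in G9Gl. Every S1S2 library was above all the others, and WT and G9Gl overlapped. Rps6ka1 was 1.26-fold higher in S1S2 than in WT (log2 0.34, SE 0.075, adjusted p = 0.000533, edgeR), and G9Gl differed from WT by -0.05 (SE 0.074, adjusted p = 0.556, edgeR). G9Gl was 1.31-fold lower than S1S2 (log2 -0.39, SE 0.023, adjusted p = 0.000118, edgeR).

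Rps6ka3 was at 100.2, 98.05 and 104.5 CPM in WT, 114.5, 114.3 and 114.1 CPM in S1S2, and 115.5, 110.4 and 112.3 CPM in G9Gl. Both mutants were above WT and overlapped each other. The rise was 1.13-fold in S1S2 (log2 0.18, SE 0.027, adjusted p = 0.00162, edgeR) and 1.12-fold in G9Gl (log2 0.16, SE 0.033, adjusted p = 0.00397, edgeR). Between the mutants the log2 difference was -0.02 (SE 0.019, adjusted p = 0.725, edgeR). The median log2 difference of the 474 tested X-linked genes was 0.11 in S1S2 and 0.04 in G9Gl against WT, which leaves 0.07 and 0.12 for Rps6ka3 when subtracted. Its adjusted p (edgeR) rose past 0.01 when libraries were scaled by their totals alone (0.0112 in S1S2, 0.0271 in G9Gl), and for G9Gl without a filter on low counts (0.0108) or with only the libraries compared (0.0115). It also did so without WT replicate 1 (0.0126 and 0.0219), without S1S2 replicate 2 (0.0101), and for G9Gl without WT replicate 2, G9Gl replicate 1 or G9Gl replicate 3 (0.018, 0.0228 and 0.0123).

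Rps6ka4, which encodes MSK2, had the largest rise of the 6 members in S1S2. It was at 64.2, 65.7 and 54.6 CPM in WT, 126.1, 124.3 and 126.2 CPM in S1S2, and 55.2, 61.7 and 58.9 CPM in G9Gl. The S1S2 libraries lay far above both other genotypes, which overlapped. Rps6ka4 was 2.04-fold higher in S1S2 than in WT (log2 1.03, SE 0.084, adjusted p = 3.44e-10, edgeR) and 2.14-fold lower in G9Gl than in S1S2 (log2 -1.099, SE 0.047, adjusted p = 8.19e-11, edgeR).

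Genes of chromosome 19, where Rps6ka4 lies, moved the same way as a whole. The median log2 difference over its 487 tested genes was 0.34 between S1S2 and WT and -0.52 between G9Gl and S1S2, against -0.003 and 0 over all tested genes. With these medians subtracted, an alternative added after the data were seen, Rps6ka4 kept differences of 0.69 and -0.58, both under 2-fold. Without WT replicate 3, the lowest WT library, the S1S2 difference was 0.95 and the adjusted p was 1.99e-11 (edgeR), which also left it short of 2-fold. In its exons 15.3% of 75-base stretches occur in 1 other annotated gene, which is not among those counted.

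Rps6ka5, which encodes MSK1, had the order of Rps6ka2, and in S1S2 against WT it fell where the other MSK gene rose. Its level was 8.52, 7.44 and 7.86 CPM in WT, 4.32, 5.79 and 6.02 CPM in S1S2, and 10.002, 10.6 and 10.15 CPM in G9Gl. No library of one genotype reached into the range of another. Rps6ka5 fell by 0.56 in S1S2 on the log2 scale (SE 0.159, adjusted p = 0.000902, edgeR), and was 0.37 higher in G9Gl than in WT (SE 0.062, adjusted p = 0.009997, edgeR). The latter passed 0.01 narrowly, and lost this when any 1 of the 6 libraries compared was left out (adjusted p = 0.0132 to 0.0368, edgeR). The difference of G9Gl from S1S2 was 0.93 (SE 0.151, adjusted p = 3.446e-06, edgeR), or 1.90-fold. It became 1.004 and passed the fold threshold when S1S2 replicate 3 was left out (adjusted p = 6.57e-06, edgeR).

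**Figure D2:**
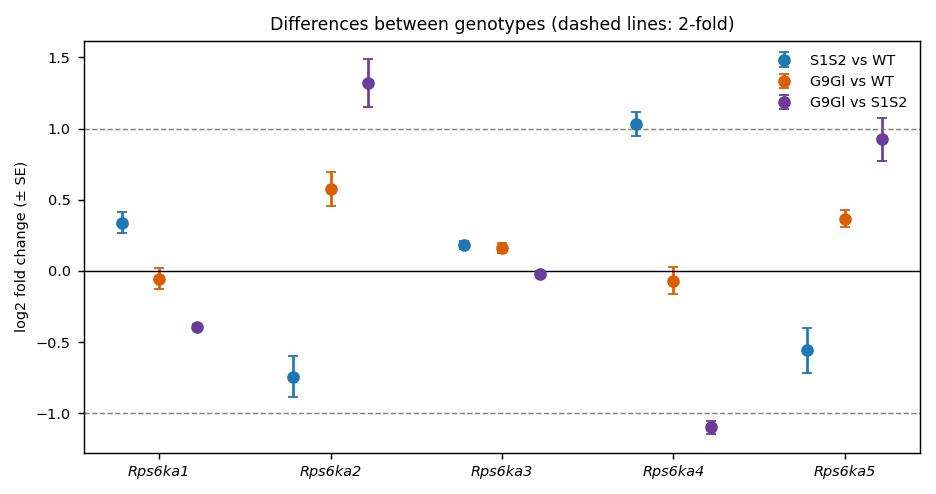
Log2 fold changes (points) with their SE (bars) of 5 members for each mutant against WT and for the mutants against each other; dashed lines mark 2-fold. Rps6ka2 and Rps6ka5 were below 0 in S1S2 and above 0 in G9Gl, and Rps6ka4 crossed the dashed lines with a rise of 1.03 in S1S2; Rps6ka6 is left out because S1S2 was at the floor.

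Members and other genes were called changed at an adjusted p of at most 0.01 and at least 2-fold. Of the 6 members, 2 were called between S1S2 and WT (Rps6ka4 higher, Rps6ka6 lower), where 9.0% of all tested genes were called (4.66% higher, 4.34% lower). Between G9Gl and WT, 1 member was called (Rps6ka6 higher), against 10.2% of tested genes (6.77% higher, 3.40% lower). Between G9Gl and S1S2, 3 were called (Rps6ka2 and Rps6ka6 higher, Rps6ka4 lower), against 13.1% (7.97% higher, 5.08% lower). Rps6ka6 is counted in each although it led to the choice of the family, and these comparisons share libraries, so nothing is read from the counts. At any fold, all 6 members passed the adjusted p in S1S2 and 4 in G9Gl against WT, where 37.9% of tested genes (20.3% higher, 17.6% lower) and 35.0% (19.0% higher, 16.0% lower) did. Between the mutants 5 did, against 42.6% (21.6% higher, 21.1% lower). The libraries did not overlap for 6 members in S1S2 against WT, 4 in G9Gl against WT and 5 between the mutants, where 56.0%, 52.8% and 60.8% of tested genes did not overlap.

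Levels were compared between members per length, as reads per kilobase of the longest coding transcript at equal library size (RPKM). In WT, Rps6ka4 was highest at 19.8 ± 1.94 RPKM (SD, n = 3). Rps6ka3 (13.9 ± 0.453) and Rps6ka2 (12.5 ± 0.957) followed, and these neighbours overlapped. Rps6ka1 came next at 6.70 ± 0.601 RPKM, then Rps6ka5 at 1.41 ± 0.0967, and Rps6ka6 was lowest at 0.782 ± 0.0214.

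In S1S2 the RPKM of Rps6ka4 reached 40.4 ± 0.353 (SD, n = 3) and that of Rps6ka3 15.8 ± 0.0226. Rps6ka1 (8.47 ± 0.194 RPKM) and Rps6ka2 (7.50 ± 1.18 RPKM) overlapped in S1S2, and Rps6ka5 was at 0.953 ± 0.164. In G9Gl, Rps6ka4 (18.88 ± 1.051 RPKM) and Rps6ka2 (18.7 ± 2.36 RPKM) overlapped at the top, Rps6ka3 was at 15.6 ± 0.353, and Rps6ka6, at 4.21 ± 0.101 RPKM, stood above Rps6ka5 at 1.82 ± 0.0583. When the merged length of all exons was used instead, the order differed in G9Gl, where Rps6ka3 passed Rps6ka2, and in no other genotype. That length lowered the mean WT level of Rps6ka2 to 6.80 RPKM and of Rps6ka5 to 0.666, and the WT libraries of Rps6ka5 (0.623 to 0.714) and Rps6ka6 (0.633 to 0.669) then overlapped.

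The makeup of the RSK group therefore differed between the lines. Summed over the 4 RSK genes, the level was 33.95 ± 1.04 RPKM in WT, 31.7 ± 1.37 in S1S2 and 44.9 ± 2.75 in G9Gl (SD, n = 3). Rps6ka6 made up 2.30 ± 0.0347% of this sum in WT and 9.39 ± 0.503% in G9Gl. In S1S2 its share was 0, 0 and 0.0679%, the last from 2 counts and so under the floor. The share of Rps6ka2 was 36.9 ± 1.82% in WT, 23.5 ± 2.68% in S1S2 and 41.5 ± 2.67% in G9Gl. The share of Rps6ka3 was 41.0 ± 0.430%, 49.8 ± 2.19% and 34.7 ± 1.31% in the same order. These shares depend on the length used. With the merged length of all exons they were 27.7%, 16.9% and 31.6% for Rps6ka2 and 49.5%, 57.2% and 42.5% for Rps6ka3. Rps6ka3 then had the larger share in G9Gl as well. The direction of the differences between the lines stayed the same.

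The MSK sum was 21.2 ± 1.94 RPKM in WT, 41.4 ± 0.332 in S1S2 and 20.7 ± 1.11 in G9Gl (SD, n = 3). Rps6ka4 made up 93.3 ± 0.749% of it in WT, 97.7 ± 0.393% in S1S2 and 91.2 ± 0.236% in G9Gl, so Rps6ka5 was the minor MSK mRNA in every line. In S1S2 the MSK sum was above the RSK sum, whereas in WT and G9Gl it was below.

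**Figure D3:**
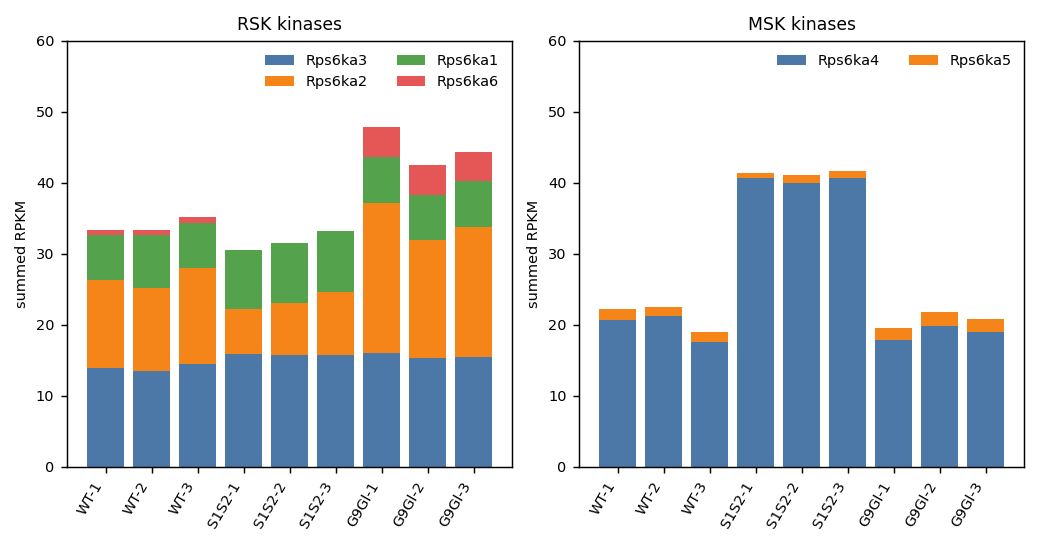
Stacked bars of RPKM (linear axis from 0) of the RSK genes (left) and the MSK genes (right) in each of the 9 libraries. The RSK sum was 44.9 RPKM in G9Gl against 33.95 in WT, with larger Rps6ka2 and Rps6ka6 parts, and the MSK sum was 41.4 RPKM in S1S2 against 21.2 in WT.

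Across the 9 libraries, which fall into 3 genotypes and so are not independent points, the log2 CPM of Rps6ka6 had a Pearson correlation of 0.972 with Rps6ka2 and 0.956 with Rps6ka5. Its correlation with Rps6ka4 was -0.949 and with Rps6ka1 -0.912. Rps6ka4 and Rps6ka1 correlated at 0.953 with each other. Rps6ka3 stood apart, at -0.284 with Rps6ka6 and 0.459 with Rps6ka4.

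The 5 tested genes most like Rps6ka6 by this measure were Tspan2 (r = 0.9979), Fez1 (0.9967), Atp6v0e2 (0.996), Ogdhl (0.9941) and Col4a5 (0.9934). A further look at the whole table found 29 tested genes with r above 0.99 and 434 above 0.95, again over 9 libraries in 3 groups. Col4a5, a chain of basement membrane collagen, is also on the X chromosome, and was at 164.6 ± 2.24 CPM in WT, 80.3 ± 2.94 in S1S2 and 256.7 ± 7.28 in G9Gl (SD, n = 3). Ogdhl, a mitochondrial dehydrogenase subunit, was at 31.1 ± 1.44 CPM in WT, 6.50 ± 0.377 in S1S2 and 79.3 ± 3.51 in G9Gl. Atp6v0e2, a subunit of the vacuolar proton pump, was like Rps6ka6 near 0 in S1S2, with 0, 0 and 0.0470 CPM, against 0.646, 0.992 and 1.06 CPM in WT.

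**Figure D4:**
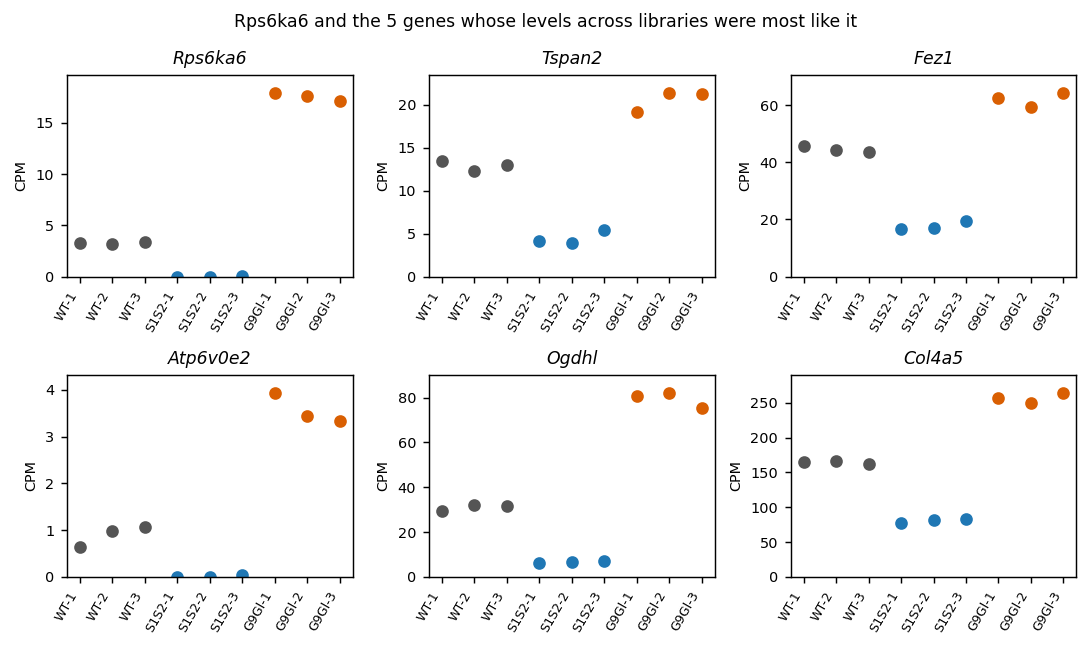
CPM (linear axes from 0) in each of the 9 libraries for Rps6ka6 and the 5 tested genes with the highest Pearson correlation to it. In each panel the S1S2 libraries were lowest and the G9Gl libraries highest, as for Ogdhl at 6.50, 31.1 and 79.3 CPM in S1S2, WT and G9Gl.

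The kinases of the cascades that lead to RSK and MSK were compared next, in lists chosen by function. Of all tested genes, 9.0% were called in S1S2 against WT, 10.2% in G9Gl against WT and 13.1% between the mutants. None of the 17 tested genes of the ERK branch, from adaptors through Ras, Raf and MEK to ERK and PDK1, was called in any comparison. At any fold, 4 were higher and 1 lower in S1S2, 2 higher and 3 lower in G9Gl, and 3 higher and 4 lower in G9Gl against S1S2. At any fold, 20.3% of all tested genes were higher and 17.6% lower in the first of these comparisons, 19.0% and 16.0% in the second, and 21.6% and 21.1% in the third. Mapk3, which encodes ERK1, was 0.18 higher in S1S2 (SE 0.022, adjusted p = 0.00569, edgeR). The MEK genes Map2k1 (-0.006 in S1S2, 0.09 in G9Gl) and Map2k2 (0.08 and 0.145) and the PDK1 gene Pdpk1 (0.04 and 0.12) did not pass at 0.01.

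On the p38 branch, 1 of 8 tested genes was called, 12.5% of the list in each comparison and close to the shares called over all tested genes. At any fold, 2 were higher and 3 lower in S1S2, 1 higher and 2 lower in G9Gl, and 2 higher and 3 lower in G9Gl against S1S2. Of all tested genes, 37.9%, 35.0% and 42.6% passed at any fold in these comparisons. The called gene was Map3k5, which encodes the stress kinase ASK1. Its level was 2.15, 2.35 and 2.58 CPM in WT, 7.95, 8.75 and 7.57 CPM in S1S2, and 0.421, 0.431 and 0.196 CPM in G9Gl. Its order thus ran opposite to that of Rps6ka6, with a log2 difference of 1.78 in S1S2 (SE 0.095, adjusted p = 3.12e-08, edgeR) and -2.76 in G9Gl (SE 0.307, adjusted p = 4.98e-08, edgeR) against WT. Mapk14, which encodes p38 alpha, was 0.38 lower in S1S2 than in WT (SE 0.053, adjusted p = 7.78e-06, edgeR), and was not shown to differ in G9Gl (0.08, adjusted p = 0.1995, edgeR).

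Among receptors that feed the cascade, 2 of 11 tested were called lower in each mutant than in WT, where 4.34% (S1S2) and 3.40% (G9Gl) of all tested genes were, and 0 were called higher. At any fold, 2 were higher and 6 lower in S1S2, and 2 higher and 5 lower in G9Gl, against 20.3% and 17.6% of all tested genes in S1S2 and 19.0% and 16.0% in G9Gl. Pdgfra, a receptor of platelet-derived growth factor and a fibroblast marker, was at 14.5 ± 1.58 CPM in WT, 3.54 ± 0.237 in S1S2 and 4.02 ± 0.472 in G9Gl (SD, n = 3). Pdgfrb was at 54.03 ± 4.81 CPM in WT, 24.5 ± 1.102 in S1S2 and 21.4 ± 1.24 in G9Gl. Both fell in S1S2, with log2 differences of -2.04 and -1.136 (adjusted p = 3.64e-10 and 5.64e-10, edgeR), and in G9Gl, with -1.85 and -1.34 (adjusted p = 4.41e-10 and 4.14e-11, edgeR). Fgfr2, a receptor of fibroblast growth factors, followed the order of Rps6ka6, at 7.63 ± 1.42 CPM in S1S2, 13.4 ± 2.09 in WT and 18.9 ± 0.758 in G9Gl, and was called between G9Gl and S1S2 (log2 1.30, adjusted p = 9.18e-08, edgeR).

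Inhibitors of the pathway were the list with the most calls in S1S2. In S1S2, 7 of 17 were higher than in WT and 0 lower, with a median log2 difference of 0.55 over the list and -0.003 over all tested genes. In G9Gl, 3 were higher and 1 lower, with a median of 0.04. Called genes made up 41.2% of the list in S1S2 and 23.5% in G9Gl, against 9.0% and 10.2% of all tested genes. At any fold, 12 rose and 2 fell in S1S2, where 20.3% and 17.6% of all tested genes did, and 6 rose and 3 fell in G9Gl, where 19.0% and 16.0% did. In G9Gl against S1S2, 0 were called higher and 4 lower (23.5%, where 13.1% of all tested genes were called). At any fold 2 were higher and 8 lower there (all tested genes: 21.6% and 21.1%), with a median of -0.209.

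The called inhibitors were phosphatases that switch off ERK and p38 (Dusp genes) and Sprouty proteins, which hold back receptor signaling. Dusp5, a nuclear ERK phosphatase, was at 5.54, 5.42 and 4.74 CPM in WT, 30.3, 29.7 and 26.9 CPM in S1S2, and 9.34, 9.45 and 9.79 CPM in G9Gl. All S1S2 libraries were far above the others, and the log2 difference from WT was 2.47 in S1S2 (SE 0.087, adjusted p = 2.71e-13, edgeR) and 0.86 in G9Gl (SE 0.072, adjusted p = 5.91e-07, edgeR). Dusp5 lies on chromosome 19, with the median shift given for Rps6ka4.

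Dusp4 was at 3.01, 2.48 and 1.90 CPM in WT, 6.90, 6.60 and 6.72 CPM in S1S2, and 0.737, 1.08 and 0.588 CPM in G9Gl. It rose by 1.445 in S1S2 on the log2 scale (SE 0.188, adjusted p = 2.12e-06, edgeR) and fell by 1.63 in G9Gl (SE 0.300, adjusted p = 1.47e-05, edgeR), the direction opposite to Rps6ka6 in both. Dusp9 was at 50.5 ± 3.07 CPM in S1S2 against 19.2 ± 4.04 in WT and 16.8 ± 0.991 in G9Gl (SD, n = 3), and Spry4 at 2.26 ± 0.179 against 0.983 ± 0.135 and 0.714 ± 0.172. Dusp2 was weakly expressed, with 8, 13 and 6 counts in WT, 21, 14 and 17 in S1S2 and 42, 33 and 44 in G9Gl, and was called higher in both mutants. The other 2 called in S1S2, Dusp1 (log2 1.41) and Spry1 (log2 1.33), fell outside the limit of 5 named genes per list and are named for completeness after their values were seen. They were also called higher in G9Gl, by 1.55 and 1.24.

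No substrate of the kinases reached a 2-fold change in mRNA. None of the 19 tested, which include the ribosomal protein Rps6, the translation factor Eif4b and the transcription factor Creb1, was called in any comparison. Over all tested genes, 9.0% were called in S1S2 against WT, 10.2% in G9Gl against WT and 13.1% between the mutants. At any fold, 2 rose and 7 fell in S1S2, and 3 rose and 7 fell in G9Gl. Over all tested genes, 20.3% rose and 17.6% fell in S1S2, and 19.0% rose and 16.0% fell in G9Gl.

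Immediate early genes, whose transcription the cascade drives, gave 2 calls of 18 in S1S2 (both higher), and 4 in G9Gl (3 higher, 1 lower). These are 11.1% and 22.2% of the list, against 9.0% and 10.2% of all tested genes. At any fold, 9 rose and 0 fell in S1S2 (all tested genes: 20.3% and 17.6%), and 7 rose and 1 fell in G9Gl (19.0% and 16.0%). The median log2 differences were 0.46 and 0.26. In G9Gl against S1S2, 1 was called higher and 2 lower (16.7%, where 13.1% of all tested genes were called). At any fold 1 was higher and 9 lower there (all tested genes: 21.6% and 21.1%), with a median of -0.258. Fosl1, an AP-1 subunit on chromosome 19, was at 4.92, 5.45 and 3.19 CPM in WT, 13.8, 13.8 and 11.3 CPM in S1S2, and 3.83, 4.74 and 4.24 CPM in G9Gl. It thus had the pattern of Rps6ka4, with a rise of 1.52 in S1S2 (SE 0.251, adjusted p = 2.67e-07, edgeR) and a difference from WT of -0.08 in G9Gl (SE 0.249, adjusted p = 0.717, edgeR).

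Ptgs2, which encodes the inducible cyclooxygenase, was at 32.7 ± 2.76 CPM in WT, 32.2 ± 2.03 in S1S2 and 76.9 ± 2.80 in G9Gl (SD, n = 3), a rise of 1.24 in G9Gl (SE 0.077, adjusted p = 3e-11, edgeR). Ier3 rose in both, to 37.6 ± 3.01 CPM in S1S2 and 44.9 ± 2.67 in G9Gl from 19.5 ± 2.67 in WT, and passed the fold threshold in G9Gl (log2 1.20, adjusted p = 2.44e-09, edgeR). Egr2 fell by 1.605 in G9Gl (SE 0.355, adjusted p = 0.000231, edgeR), from 38, 55 and 62 counts in WT to 13, 22 and 12. Nr4a3 was called higher in both mutants but rested on 3 to 16 counts per library.

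Of 13 tested relatives of the family among the other S6 and AGC kinases and the kinases activated by ERK or p38, 1 was called. That is 7.69% of the list in S1S2 against WT and between the mutants and 0% in G9Gl against WT, below the shares called over all tested genes. At any fold, 3 were higher and 4 lower in S1S2, 1 higher and 3 lower in G9Gl, and 2 higher and 5 lower in G9Gl against S1S2. Of all tested genes, 37.9%, 35.0% and 42.6% passed at any fold in these comparisons. Mapkapk3, a kinase downstream of p38, was at 8.43, 10.1 and 10.02 CPM in WT, 4.92, 4.19 and 4.84 CPM in S1S2, and 9.97, 10.02 and 11.2 CPM in G9Gl. It fell by 1.04 in S1S2 (SE 0.112, adjusted p = 9.45e-07, edgeR). Over all lists, 10 of 102 tested genes were called higher and 3 lower in S1S2 (12.7%, where 9.0% of all tested genes were called), and 6 higher and 5 lower in G9Gl (10.8%, where 10.2% were). Between the mutants, 3 were higher and 7 lower in G9Gl than in S1S2 (9.80%, where 13.1% were).

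**Figure D5:**
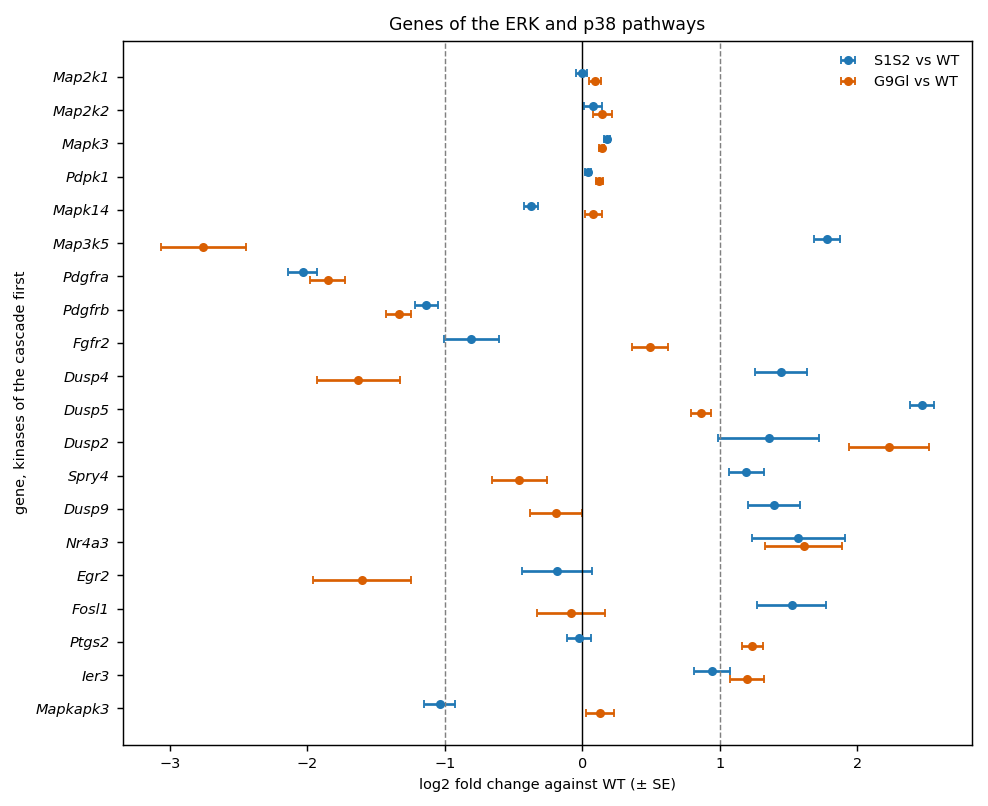
Log2 fold changes against WT (points, with SE) of named genes of the ERK and p38 pathways in S1S2 and G9Gl; dashed lines mark 2-fold. The kinases Map2k1 to Mapk14 lay between the dashed lines, Map3k5 and Dusp4 were above 0 in S1S2 and below 0 in G9Gl, and Dusp5 had the highest value in S1S2, at 2.47.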

How the data were processed

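RNA-seq of total RNA from 9 MEF libraries (3 each of WT, S1S2 and G9Gl) was analysed from the table of raw read counts per gene that the authors deposited. Per the labels, reads were aligned to GRCm38 with STAR 2.5.2b, and per the methods libraries were made with a stranded kit and genes counted with TEtranscripts. The methods also took normalized expression from count matrices of the snakePipes pipeline. Which of these programs made the deposited counts, and with which strand and multi-mapping settings, was not given in the sources used here. No column was without a sample. Gene IDs were matched to GENCODE for symbols and positions (47310 of 47937). Genes were filtered with filterByExpr, scaled by TMM (0.981 to 1.029) and tested in 1 edgeR 4.0.16 quasi-likelihood fit (R 4.3.3) over all 9 libraries, with Benjamini-Hochberg adjustment over all 15540 tested genes. Genes were called at adjusted p up to 0.01 and 2-fold or more. SEs come from the spread of log2 CPM (prior count of 2) between libraries. As the 3 libraries of a line come from 1 clone, p-values measure only the spread between those libraries. RPKM was computed from the longest coding transcript. The fit was also run on simulated counts with the same spread for every gene and known changes in S1S2 only. Its outcome is not reported here, and nothing above rests on it.

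The members, pathway lists and marker lists were chosen with earlier results of these data known. Named genes were all members, kinases upstream of them (1 of which is not reported here), up to 5 called genes per pathway list by size, the 4 nearest coding genes on each side of Rps6ka3 and Rps6ka6, the 5 genes most like Rps6ka6 and the targeted genes. No 2 libraries of a genotype agreed within counting noise (chi-square per degree of freedom 2.59 to 24.5). Alternatives were DESeq2 1.42.0, other scalings and filters, another cutoff, fits to the compared libraries only, a replicate block and leaving out each library.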

Additional observations from a re-analysis of the deposited data

Results flagged for a closer look

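For 4 of the 5 other members, leaving Rps6ka6 aside, G9Gl and S1S2 differed past the adjusted p of 0.01 at any fold (edgeR). Of all tested genes, 42.6% did so. Libraries did not overlap for 60.8% of tested genes between the mutants, 56.0% in S1S2 against WT and 52.8% in G9Gl against WT. The log2 difference of G9Gl from S1S2 was 1.32 for Rps6ka2 and 0.927 for Rps6ka5, and for both every S1S2 library was below and every G9Gl library above the WT libraries. It was -1.099 for Rps6ka4 and -0.393 for Rps6ka1, where the G9Gl libraries overlapped WT and every S1S2 library was above both. For Rps6ka6, with every S1S2 library below and every G9Gl library above WT, the fitted difference was 9.061. That fitted value ranged from 8.432 to 11.979 when 1 library was left out, with 11.979 without S1S2 replicate 3. Because S1S2 was under the floor, the size of the difference depends on the prior count. The difference of mean log2 CPM was 7.539 with a prior count of 2 and 9.057 with 0.5. No p is given because the gene was chosen for this pattern.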

How the results depend on the processing

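Between S1S2 and WT, G9Gl and WT, and G9Gl and S1S2, 1398, 1580 and 2028 genes were called. Requiring at least 10 counts in every library left 728, 682 and 962, because fewer genes were tested, and removed Rps6ka6, so that 1 member was called in S1S2 and 0 in G9Gl against WT. With adjusted p up to 0.05 at any fold there were 7599, 7138 and 8288 genes, 6, 4 and 5 members, and 66, 66 and 63 pathway genes. DESeq2 called 1352, 1515 and 1960 genes. Leaving out each library in turn gave 1296 to 1426, 1515 to 1599 and 1981 to 2076 genes, 1 to 2, 1 to 1 and 3 to 4 members, and 11 to 13, 10 to 12 and 10 to 11 pathway genes. Without WT replicate 3, 1 member was called in S1S2 (Rps6ka4 lost). No member changed direction past the threshold under any setting tried. The replicate numbers did not pair the libraries (mean correlation of deviations 0.012, range -0.069 to 0.124, and 3 of 9 libraries closest to their own number). With the replicate block, 1383, 1568 and 2022 genes, 2, 1 and 3 members and 13, 11 and 10 pathway genes were called, and the adjusted p of Rps6ka5 in G9Gl against WT was 0.0121. Differences in counts as low as those of Rps6ka6 in S1S2 were limited by depth.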

Other observations

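The genes around Rps6ka6 were mostly silent. Of its 4 nearest protein-coding genes on each side, Gm10112, Cylc1, Pou3f4, Gm45194, Tex16 and 4933403O08Rik had 0 counts in all 9 libraries. Hdx, 159.1 kb away between starts, had 0 counts in WT and S1S2 and 8, 9 and 3 counts in G9Gl, too few to test. Gm6377, at -2341.2 kb between starts (toward lower coordinates), was at 0.352 ± 0.110 CPM in WT, 0.641 ± 0.189 in S1S2 and 1.00 ± 0.0828 in G9Gl (SD, n = 3), and was called higher in G9Gl than in WT (log2 1.497, SE 0.247, adjusted p = 0.00092, edgeR). Around Rps6ka3, Cnksr2, Klhl34, Smpx and Map7d2 had 0 counts. Mbtps2, Eif1ax, Bclaf3 and Sh3kbp1 were expressed and none was called. Sh3kbp1, an adaptor in receptor endocytosis, was 0.38 higher in S1S2 (adjusted p = 5.58e-05, edgeR) and 0.34 lower in G9Gl (adjusted p = 0.000272, edgeR) than in WT on the log2 scale.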
